A study of Mus musculus with 6 samples.

Results

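The genes described here encode the nuclear RNA polymerases I, II and III of the mouse and the initiation factors of polymerases I and III. They were taken from the gene symbols of the deposited count tables: 28 symbols beginning with Polr1, Polr2 or Polr3 followed by a letter, and 17 named factors, which makes 45 of 24391 annotated genes. RNA was sequenced from mRPMaxKO, a cell line from a mouse lung tumour of the RPMax-/- genotype on a mixed 129/SvJ and C57BL/6 background, grown for fewer than 20 passages. RPMax stands for loss of Rb1, Trp53 and Max, a model of small cell lung cancer, and all 6 libraries share this genotype. The cells were a polyclonal population, puromycin selected, with a doxycycline-inducible lentiviral vector, and 4 days of doxycycline are given for all libraries alike. The control group and the MAX restored group hold 3 libraries each, numbered 1 to 3 in the labels. The entry of 4 days is the same for both groups and does not by itself tell whether the control cells received doxycycline. The labels also do not state which vector those cells carried. A difference in vector or doxycycline thus cannot be told apart from the return of MAX. Nor do they say that replicates are separate cultures. All p-values therefore rest on the spread among these 6 libraries, and that spread may be technical.

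Polymerase I makes a single long precursor of the large ribosomal RNAs, polymerase II makes messenger RNAs, and polymerase III makes 5S ribosomal RNA, transfer RNAs and other short RNAs. Each enzyme has its own largest and second largest subunit, which form the catalytic centre, while some small subunits sit in all of the enzymes and others in polymerases I and III alone. MYC, which binds DNA as a dimer with MAX, is known in other cells to raise transcription by all of these polymerases, and ribosomal and transfer RNA synthesis by I and III is tied to cell growth. The question put to the data was how the transcripts of each enzyme differed between cells with and without MAX.

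Total counts lay between 10046899 and 11925909 per library. The level of Max itself in CPM, read counts scaled to library size by the TMM method, was 63.5 ± 2.47 in the controls and 1327 ± 18.7 with MAX restored (SD, n = 3 each), so the labels held for all 6. All 8 neuroendocrine markers and all 4 epithelial markers were present, the lowest at 177 CPM and 305 CPM in any library, and the summed epithelial markers lay between 2542 and 2691 CPM in the controls and between 3260 and 3321 CPM with MAX restored. Krt8 made up most of that difference (501 against 1040 CPM), and Epcam and Cdh1 did not pass the threshold. The summed level of 6 fibroblast markers was at most 3.32 CPM in any library, that of 5 immune markers at most 3.22 CPM, with Cd3e at 0 in all, and that of 4 endothelial markers at most 1.96 CPM, with Cdh5 at 0 in all. Control 1 stood apart from the other controls: the chi-square per degree of freedom was 8.91 and 10.2 against controls 2 and 3, where the other replicate pairs lay between 1.24 and 1.505. That chi-square includes the ribosomal RNA precursor Rn45s, at 101661 counts in control 1 and 19493 and 10934 in controls 2 and 3. How much of the value comes from this gene was not separated. Of the 44 tested members 28 lay below the mean of the other controls in control 1 and 16 above, from log2 -0.38 for Polr2a to 0.42 for Polr2k. Class counts without control 1 are given with the overview.

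Transcripts for subunits of polymerases I and III, and for subunits the enzymes share, were mostly lower with MAX restored. Among subunits with Polr symbols, all 3 of polymerase I, 7 of 10 of polymerase III and 5 of 7 shared ones fell. None of the 7 found in polymerase II alone passed the threshold in either direction (edgeR quasi-likelihood test, Benjamini-Hochberg adjusted p under 0.05 over 12664 genes). Shared subunits included, 8 of 10 were lower for polymerase I, 12 of 17 for polymerase III and 3 of 12 for polymerase II. Of 4 further polymerase I and III subunits under other symbols, counted apart, 3 fell and Znrd1, of polymerase I, did not pass. The median log2 fold change was -0.49 for polymerase I, -0.31 for the shared subunits, -0.30 for polymerase III and 0.03 for polymerase II, where the median of all genes tested was -0.0036. Most of the transcriptome differed between the groups, with 63.5% of all tested genes called, 32.3% lower and 31.2% higher. Against that background 25 of the 44 tested members were called, 19 lower and 6 higher. In bulk RNA, fewer cells that express a gene and less of its RNA per cell cannot be told apart. All 6 that rose were initiation factors, and of the 27 subunits 15 fell and none rose; at an unadjusted p under 0.05, 1 subunit was higher, and DESeq2 and limma voom also called 0 higher. Without control 1, 19 members were lower and 9 higher, among them the subunits Polr2b and Polr2c. In that setting 3 polymerase I, 6 polymerase III and 6 shared subunits were lower, and 2 polymerase II subunits and 5 polymerase III factors were higher. For 28 of 44 members the control and MAX restored ranges were separate, 19 of them with MAX restored below, where the shares of all tested genes were 67.1% and 33.8%.

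**Figure D1:**
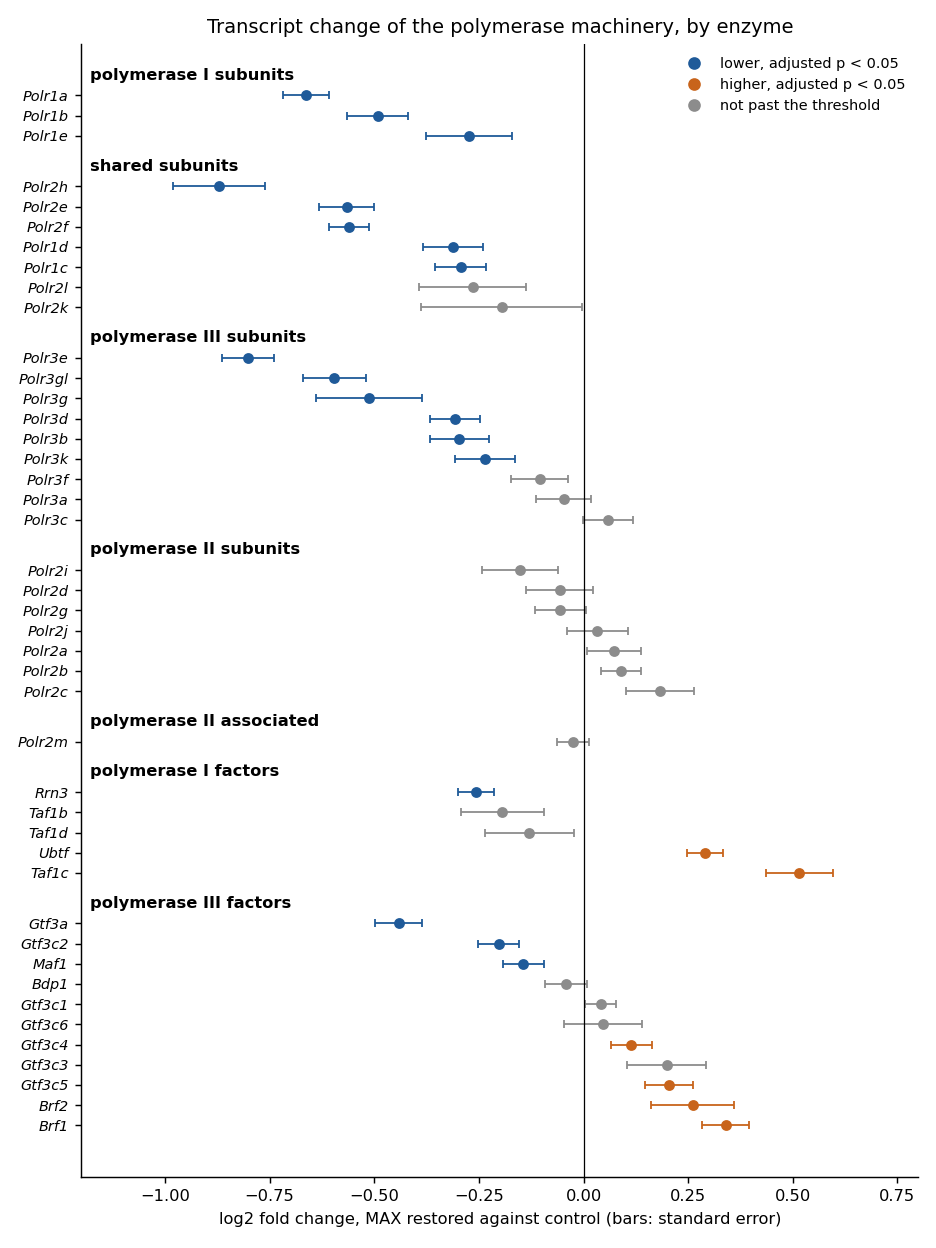
Log2 fold change of 43 of the 44 tested members (x axis, MAX restored against control, n = 3 each), grouped by enzyme, with standard errors as bars and colours for the call at adjusted p under 0.05. The polymerase I, shared and most polymerase III subunits lie left of 0, the 7 polymerase II subunits lie between -0.15 and 0.18, and the factors lie on both sides.

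**Figure D2:**
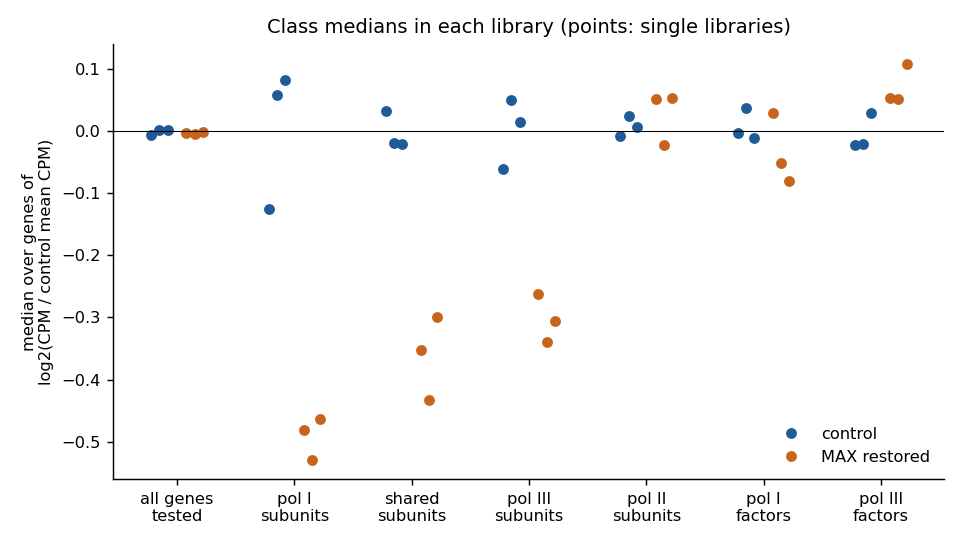
Median over the genes of a class of log2(CPM over the control mean), for each library as a point (y axis), by class (x axis). The MAX restored libraries lie between -0.53 and -0.46 for polymerase I subunits and between -0.34 and -0.26 for polymerase III subunits, below every control, whereas the groups overlap for polymerase II subunits.

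In single libraries the class medians separated in the same way, as the plot of class medians shows. For polymerase I subunits the median log2 ratio to the control mean for controls 1, 2 and 3 was -0.13, 0.06 and 0.08, and for MAX restored 1, 2 and 3 it was -0.48, -0.53 and -0.46. For polymerase III subunits it was -0.06, 0.05 and 0.01 in the controls and -0.26, -0.34 and -0.31 with MAX restored. For polymerase II subunits it was -0.0077, 0.02 and 0.0059 in the controls and 0.05, -0.02 and 0.05 with MAX restored, so these groups overlapped. These medians are descriptions of small sets and carry no test of their own.

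The E-box CACGTG is the DNA sequence that MYC-MAX dimers bind, and since its reverse complement is the same, both strands are searched at once. RefSeq promoters of build GRCm38.p6, from 250 bases before to 50 after the start site, were found for 36 of the 45 members, and 6 of these held CACGTG. The motif stood in 7.15% of all 32851 promoters of this length, and in 11.9% of the 9671 tested genes with an entry. Of members that fell 4 of 16 held it, and of members that rose 0 of 4, where the shares among all tested genes were 15.04% of those called lower and 9.46% of those called higher. These few members are a description, with no test. The windows below are 30 bases long and read 5′ to 3′ on the strand of the gene. They show the motif, in capitals, in the members that hold it. Polr2h and Polr3e among them had the largest falls of all members, and Polr3gl fell by log2 -0.60. Polr1a (log2 -0.66), Polr2e (-0.57) and Polr2f (-0.56), also among the largest falls, held no motif. Polr2h has another RefSeq start site, whose window held none.
Polr2h, chr16:20717837-20717866, plus strand, motif 23 bases after the start: cttacttttctcCACGTGagggggtgcgcg
Polr3e, chr7:120917771-120917800, plus strand, motif 5 bases after the start: ccccgctcccccCACGTGtccggcggagtt
Polr3gl, chr3:96594358-96594387, minus strand, motif 194 bases before the start: ttctggctccgcCACGTGtctggatgagct
Polr3c, chr3:96727659-96727688, minus strand, motif 237 bases before the start: gcccgcaagggtCACGTGagtccgcccggc
Gtf3c6, chr10:40257751-40257780, minus strand, motif 206 or 56 bases before its RefSeq start sites: gtgtcgagtctcCACGTGggacccacttac
Rrn3 held the motif at 215 and at 48 bases before its start, and its upstream 250 bases, chr16:13780449-13780698 on the plus strand, show both copies in capitals.
Rrn3 upstream: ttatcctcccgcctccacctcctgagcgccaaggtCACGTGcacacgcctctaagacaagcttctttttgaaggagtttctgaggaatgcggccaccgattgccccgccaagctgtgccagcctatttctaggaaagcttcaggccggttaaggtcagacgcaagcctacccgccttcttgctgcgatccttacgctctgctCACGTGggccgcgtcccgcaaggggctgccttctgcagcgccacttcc
Of these 6 genes Polr2h, Polr3e, Polr3gl and Rrn3 fell, whereas Polr3c (log2 0.06) and Gtf3c6 (0.05) did not pass the threshold.

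The promoter window of Polr3e also held letters that match an element of polymerase III genes. The B box, searched as GGTTCGA followed by any 2 bases and CC, is the internal control element that TFIIIC binds in transfer RNA genes. On either strand it matched 40 of the 32851 promoters (0.122%) and 1 of the 46 promoter windows of the members, that of Polr3e. The match lies 201 bases before the start, within chr7:120917528-120917777 on the plus strand, and is shown in capitals because no other member's window held it.
Polr3e upstream: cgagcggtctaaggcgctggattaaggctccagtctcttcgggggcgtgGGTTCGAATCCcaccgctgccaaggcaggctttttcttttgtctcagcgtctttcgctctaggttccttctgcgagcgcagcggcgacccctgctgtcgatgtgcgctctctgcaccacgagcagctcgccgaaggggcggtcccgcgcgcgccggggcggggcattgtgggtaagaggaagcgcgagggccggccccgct
A match is a description of the letters and does not show that the site is used in these cells or acts on Polr3e. Whether it lies in a separate transfer RNA gene upstream of Polr3e was not checked.

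Of the largest subunits, which carry the active site, that of polymerase I alone passed the threshold. Polr1a, of polymerase I, was at 117, 128 and 138 CPM in controls 1, 2 and 3 and at 80.2, 81.3 and 79.8 CPM in MAX restored 1, 2 and 3. The groups did not overlap, and Polr1a fell 1.58-fold (log2 -0.66, SE 0.06, edgeR adjusted p = 2.78e-09). Polr2a, of polymerase II, was at 365, 472 and 476 CPM in the controls and at 456, 471 and 454 CPM with MAX restored. Control 1 was the low library here and the groups overlapped (log2 0.07, SE 0.06, 95% interval -0.06 to 0.21, edgeR adjusted p = 0.333); without control 1 the value was -0.044, also not past the threshold. Polr3a, of polymerase III, was at 42.2, 50.7 and 48.2 CPM in the controls and at 45.5, 45.3 and 45.8 CPM with MAX restored. The MAX restored values lay within the range of the controls (log2 -0.05, SE 0.07, 95% interval -0.18 to 0.09, edgeR adjusted p = 0.542). In mm9 coordinates Polr1a spans 71859047 to 71929355 of chromosome 6, Polr2a 69547501 to 69572135 of chromosome 11 and Polr3a 25267916 to 25306268 of chromosome 14.

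The second largest subunits, which complete the catalytic cleft, fell in polymerases I and III. Polr1b was at 36.0, 41.5 and 42.2 CPM in controls 1, 2 and 3 and at 28.6, 27.7 and 28.9 CPM in MAX restored 1, 2 and 3. All MAX restored values lay below all controls, and Polr1b fell 1.41-fold (log2 -0.49, SE 0.07, edgeR adjusted p = 7.06e-06). Polr3b was at 50.9, 63.7 and 55.0 CPM in the controls and at 48.3, 44.2 and 45.4 CPM with MAX restored. The groups were separate by a small margin between control 1 and MAX restored 1, and Polr3b fell 1.23-fold (log2 -0.30, SE 0.07, edgeR adjusted p = 0.00112). Polr2b was at 129, 128 and 121 CPM in the controls and at 130, 135 and 137 CPM with MAX restored. Its groups were also separate, by about 1 CPM, and the difference did not pass the threshold (log2 0.09, SE 0.05, edgeR adjusted p = 0.112), although it did without control 1 (0.10, adjusted p = 0.0248).

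**Figure D3:**
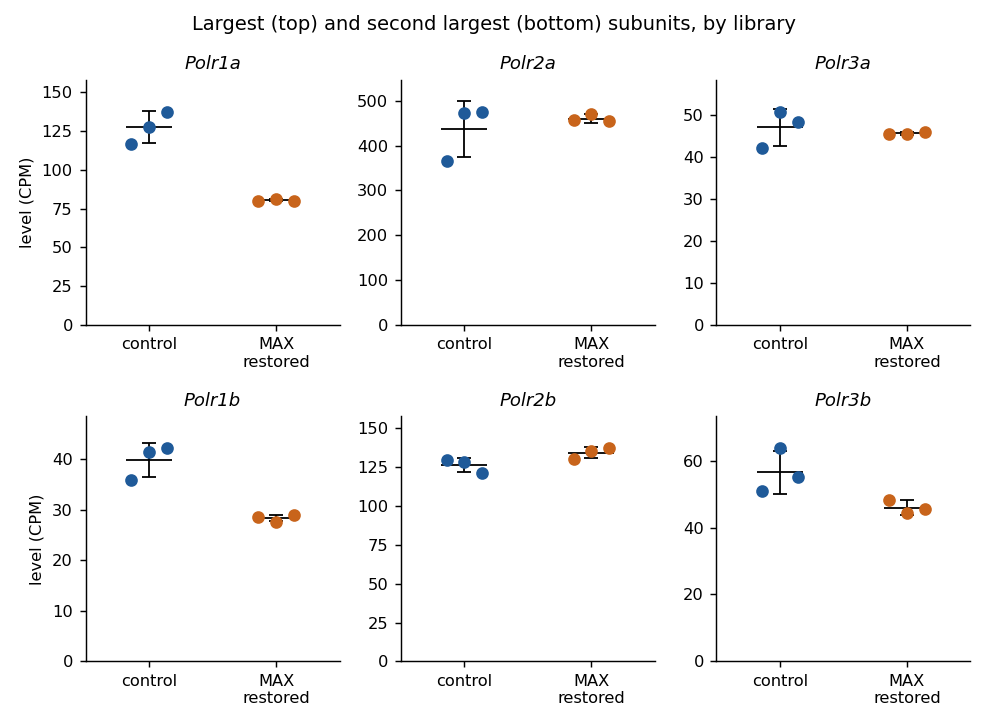
Levels in CPM (y axes from 0) of the largest subunits Polr1a, Polr2a and Polr3a and the second largest Polr1b, Polr2b and Polr3b in 3 control and 3 MAX restored libraries, with points for libraries 1 to 3 from left to right and a line and bars for the mean and SD. Polr1a and Polr1b are lower in every MAX restored library, Polr2a and Polr3a overlap between groups, and control 1 is the low Polr2a library.

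Ratios between enzymes taken within a library do not depend on how libraries are scaled. Per length, the ratio of Polr1a to Polr2a for controls 1, 2 and 3 was 0.353, 0.299 and 0.319, and for MAX restored 1, 2 and 3 it was 0.194, 0.190 and 0.194. It was thus lower in all MAX restored libraries, by 0.74 on the log2 scale (log2 -0.74), and by -0.68 without control 1. The ratio of Polr1a to Polr3a went from 2.12, 1.93 and 2.19 to 1.35, 1.38 and 1.34 (log2 -0.62), again with no overlap. The ratio of Polr3a to Polr2a moved less, from 0.166, 0.154 and 0.146 to 0.143, 0.138 and 0.145 (log2 -0.13, and -0.078 without control 1), and its groups nearly touched. Among the second largest subunits the ratio of Polr1b to Polr2b went from a mean of 0.302 ± 0.0341 to 0.202 ± 0.0071 (SD, n = 3 each) and that of Polr3b to Polr2b from 0.354 ± 0.0406 to 0.271 ± 0.0189. The ratio of Polr1b to Polr3b went from 0.856 ± 0.0698 to 0.746 ± 0.0284, so the polymerase I gene was lower relative to its counterpart in both other enzymes. For each of these 6 ratios the exact two-sided permutation test gave p = 0.1, the smallest that 3 against 3 libraries allow, and 0.133 after Benjamini-Hochberg adjustment over the 8 ratios computed.

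Of the subunits found in polymerase I alone, 3 have symbols that begin with Polr. Beside the catalytic pair, Polr1e, which encodes part of a dimer that helps initiation and elongation, was at 13.9, 16.6 and 14.9 CPM in the controls and at 12.5, 12.9 and 12.02 CPM with MAX restored. The groups did not overlap, and Polr1e fell 1.21-fold (log2 -0.27, SE 0.10, edgeR adjusted p = 0.0261). That call was the least secure of the 3, with an adjusted p of 0.136 without control 2, 0.0667 without MAX restored 1, 0.0843 without MAX restored 3 and 0.121 by DESeq2. Of 4 further subunits of polymerases I and III that the annotation lists under other symbols, 3 fell and none rose. Cd3eap, which encodes the partner of the Polr1e protein, was at 41.6, 40.0 and 40.7 CPM in the controls and at 21.3, 22.6 and 24.3 CPM with MAX restored (log2 -0.84, SE 0.07). Twistnb, of the polymerase I stalk, fell with log2 -0.48 and Crcp, of the polymerase III stalk, with -0.56. Znrd1, a small polymerase I subunit, stood at 20.4 CPM in the controls and 19.6 CPM with MAX restored and did not pass the threshold.

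The shared subunits, although 5 of the 7 carry polymerase II names, were lower together with those of polymerases I and III. Polr2h, a small subunit of all 3 enzymes, was at 15.3, 18.2 and 17.3 CPM in controls 1, 2 and 3 and at 9.41, 9.72 and 8.60 CPM in MAX restored 1, 2 and 3. The groups were far apart, and Polr2h fell 1.83-fold, the largest change of any member (log2 -0.87, SE 0.11, edgeR adjusted p = 8.56e-07). Polr2e, which forms part of the jaw of all 3 enzymes, was at 61.8, 72.2 and 64.9 CPM in the controls and at 46.4, 46.6 and 41.1 CPM with MAX restored. Polr2f, which helps hold the largest subunit in place, was at 194, 185 and 189 CPM in the controls and at 135, 126 and 123 CPM with MAX restored. Neither gene overlapped between groups, and they fell 1.48-fold (log2 -0.57, SE 0.07) and 1.47-fold (log2 -0.56, SE 0.05). Polr1c and Polr1d, whose proteins pair to start assembly of polymerases I and III, fell 1.23-fold (log2 -0.29) and 1.24-fold (log2 -0.31). Their polymerase II counterparts Polr2c (log2 0.18) and Polr2j (0.03) did not pass the threshold. Polr2k and Polr2l, the remaining shared subunits, held few reads, with 33 to 47 counts per library for Polr2k, and did not pass (log2 -0.20, SE 0.19, and log2 -0.27, SE 0.13). Polr2l passed without control 1 (log2 -0.36, adjusted p = 0.0167).

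Polymerase III is built of a core, an initiation trimer, a dimer that aids initiation and termination, and further subunits, and the parts moved unequally. In the dimer both genes fell. Polr3e was at 49.1, 53.3 and 52.9 CPM in controls 1, 2 and 3 and at 29.7, 30.3 and 28.9 CPM in MAX restored 1, 2 and 3. The groups were far apart, and Polr3e fell 1.74-fold (log2 -0.80, SE 0.06, edgeR adjusted p = 9.53e-10). Its partner Polr3d fell 1.24-fold (log2 -0.31, SE 0.06). Polr3k, which encodes the subunit for RNA cleavage and termination, was at 88.8, 71.0 and 69.6 CPM in the controls and at 67.1, 61.8 and 65.9 CPM with MAX restored. It fell 1.18-fold (log2 -0.24, SE 0.07), with control 1 well above the other libraries, and without control 1 the value was -0.12 with an adjusted p of 0.0507; the call was also lost without MAX restored 2 (adjusted p = 0.0619). In the trimer, Polr3c (log2 0.06, SE 0.06) and Polr3f (-0.10, SE 0.07) did not pass the threshold, whereas both forms of the remaining member fell. Polr3f was called lower without MAX restored 3 (log2 -0.17, adjusted p = 0.0461).

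The remaining trimer member comes in exchangeable forms encoded by Polr3g, known from stem and tumour cells, and Polr3gl, the widely expressed form. Polr3g was at 11.8, 11.2 and 13.4 CPM in the controls and at 7.14, 9.19 and 9.28 CPM with MAX restored, without overlap. It fell 1.43-fold (log2 -0.51, SE 0.13, edgeR adjusted p = 0.00158). Polr3gl was at 40.0, 34.4 and 36.8 CPM in the controls and at 25.96, 23.8 and 23.6 CPM with MAX restored, also without overlap. It fell 1.51-fold (log2 -0.60, SE 0.08, edgeR adjusted p = 1.12e-06). Per length Polr3gl was the more abundant form in every library, at 25.97 ± 1.96 CPM per kb in the controls against 3.97 ± 0.363 for Polr3g (SD, n = 3). The ratio of Polr3g to Polr3gl per length was 0.138, 0.152 and 0.170 in the controls and 0.128, 0.180 and 0.183 with MAX restored. These ranges overlapped (exact two-sided permutation p = 0.7, adjusted 0.7), and a test of 3 against 3 libraries, with 0.1 as its smallest p, cannot show whether the balance of the forms shifted.

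**Figure D4:**
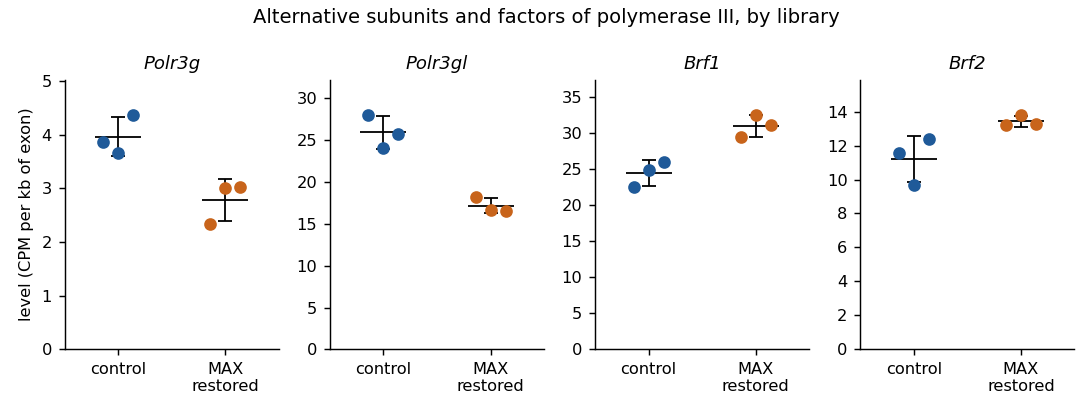
Levels in CPM per kb of exon (y axes from 0, scales differ between panels) of the exchangeable pairs Polr3g and Polr3gl, and Brf1 and Brf2, in 3 control and 3 MAX restored libraries, with points for libraries and a line and bars for the mean and SD. Both forms of the subunit are lower and both factors higher with MAX restored, without overlap between groups.

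None of the 7 subunits found in polymerase II alone passed the threshold. Beside the catalytic pair, Polr2c was at 24.0, 22.4 and 23.4 CPM in controls 1, 2 and 3 and at 24.5, 26.7 and 28.3 CPM in MAX restored 1, 2 and 3. The groups did not overlap and the gene came closest to the threshold (log2 0.18, SE 0.08, edgeR adjusted p = 0.0562); it passed without control 1 (0.20, adjusted p = 0.0334) and without MAX restored 1 (0.25, adjusted p = 0.0288). Polr2c shares 26.2% of its exon length with Dok4 on the opposite strand, and the 50 tested genes nearest to it on the chromosome had a median log2 fold change of 0.23. The stalk genes Polr2d and Polr2g each stood at log2 -0.06, and Polr2i, whose product aids proofreading, at -0.15. Over the 7 genes the 95% intervals reached from -0.34 for Polr2i to 0.35 for Polr2c. For single genes that leaves room for changes in either direction as large as the median of the polymerase III subunits (log2 -0.30). With edgeR 0 of the 7 were called, at an unadjusted p under 0.05 there was 1, Polr2c, and DESeq2 and limma voom called 0. Polr2m, whose name matches but whose product is a protein that associates with polymerase II rather than a core subunit, was at 300 ± 6.04 CPM in the controls and 294 ± 5.98 CPM with MAX restored (SD, n = 3 each) and did not pass.

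Of 5 tested initiation factors of polymerase I 2 rose and 1 fell, which at 60% called is near the share of all tested genes (63.5%). Rrn3, the factor that makes polymerase I competent to start and a relay of growth signals, was at 98.7, 99.4 and 98.8 CPM in controls 1, 2 and 3 and at 83.4, 83.5 and 81.7 CPM in MAX restored 1, 2 and 3. The libraries of a group were nearly level, and Rrn3 fell 1.19-fold (log2 -0.26, SE 0.04, edgeR adjusted p = 3.52e-05). Ubtf, the upstream binding factor that covers active ribosomal RNA genes, was at 193, 200 and 197 CPM in the controls and at 236, 236 and 250 CPM with MAX restored. All MAX restored values lay above all controls, and Ubtf rose 1.22-fold (log2 0.29, SE 0.04, edgeR adjusted p = 5.75e-06). SL1, the factor that selects the polymerase I promoter, consists of the TATA-binding protein and the products of Taf1a to Taf1d. Taf1c was at 20.8, 23.5 and 21.9 CPM in the controls and at 29.8, 31.5 and 33.5 CPM with MAX restored. It rose 1.43-fold without overlap (log2 0.52, SE 0.08, edgeR adjusted p = 1.13e-05), with 14.8% of its exon length shared with Dnaaf1 on the opposite strand. Taf1b (log2 -0.19, SE 0.10) and Taf1d (-0.13, SE 0.11) did not pass the threshold. Taf1b was called lower without MAX restored 2 (log2 -0.27, adjusted p = 0.0479), and Taf1d ranged from -0.22 to -0.016 with 1 library left out, never past the threshold. Taf1a, which the deposited annotation places on an unplaced piece of chromosome 1, had 0 counts in all 6 libraries and was not tested. By counting error alone this allows up to 3 counts per library. Whether reads of Taf1a could be mapped to that piece is not known, so the 0 does not show that the gene was silent.

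Of 11 polymerase III factors 4 rose and 3 fell, which at 63.6% called is the share of all tested genes (63.5%). TFIIIB, which recruits the enzyme, holds the TATA-binding protein, Bdp1 and either Brf1, used at transfer RNA genes, or Brf2, used at promoters such as that of the U6 small nuclear RNA. Brf1 was at 62.2, 68.7 and 71.8 CPM in controls 1, 2 and 3 and at 81.3, 89.7 and 85.7 CPM in MAX restored 1, 2 and 3. Its groups did not overlap and it rose 1.27-fold (log2 0.34, SE 0.06, edgeR adjusted p = 2.77e-05). Brf2 was at 16.0, 13.4 and 17.1 CPM in the controls and at 18.2, 19.1 and 18.4 CPM with MAX restored. It rose 1.20-fold (log2 0.26, SE 0.10, edgeR adjusted p = 0.0281), with control 2 the low library, and without it the value was 0.16 with an adjusted p of 0.179. The Brf2 call was also lost without any 1 of the MAX restored libraries (adjusted p between 0.0506 and 0.0804) and by DESeq2 (0.122). The ratio of Brf2 to Brf1 per length was 0.458 ± 0.0626 in the controls and 0.432 ± 0.0123 with MAX restored (SD, n = 3 each), and these ranges overlapped (exact two-sided permutation p = 0.6, adjusted 0.686). Bdp1 did not pass the threshold (log2 -0.04, SE 0.05), although it was called lower with a gene length trend removed (-0.14, adjusted p = 0.0189).

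TFIIIC, which recognises the internal promoter elements, is encoded by Gtf3c1 to Gtf3c6. Of these 6, Gtf3c5 rose (log2 0.21, SE 0.06), Gtf3c4 rose by the narrowest margin (0.11, SE 0.05, edgeR adjusted p = 0.0491), and Gtf3c2 fell (-0.20, SE 0.05). Gtf3c3 (0.20, SE 0.09) did not pass, but was called higher without control 1 (0.29, adjusted p = 0.00256) and without MAX restored 2 (0.27, adjusted p = 0.0329). The Gtf3c4 call was lost when any library but control 1 was left out, with adjusted p between 0.0607 and 0.208, by DESeq2 (0.134), with no filter on low counts (0.0800) and with a gene length trend removed (0.546). Gtf3c1, the largest subunit, was at 270 ± 2.52 CPM in the controls and 278 ± 2.38 CPM with MAX restored (SD, n = 3 each), not past the threshold. Gtf3a, TFIIIA, needed for 5S ribosomal RNA genes alone, was at 61.8, 67.3 and 66.3 CPM in the controls and at 49.3, 48.5 and 45.8 CPM with MAX restored. It fell 1.36-fold without overlap (log2 -0.44, SE 0.06, edgeR adjusted p = 9.11e-07). Mtif3 covers 60.2% of its exon length on the opposite strand. By the default counting, reads over exons of both genes are counted for neither, so the Gtf3a values rest on the remaining exon length. Maf1, the repressor that shuts polymerase III off under stress and starvation, was at 134, 134 and 140 CPM in the controls and at 122, 128 and 118 CPM with MAX restored. Maf1 fell 1.10-fold (log2 -0.14, SE 0.05, edgeR adjusted p = 0.0148), a call lost without control 3 (adjusted p = 0.0512), MAX restored 1 (0.0607) or MAX restored 3 (0.0950), and with a gene length trend removed (0.156).

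Levels within an enzyme were far from equal when expressed per length. In the controls the subunits of polymerase II alone ran from 14.8 CPM per kb for Polr2c to 132 for Polr2g, with a median of 33.1. The 3 polymerase I subunits with Polr symbols ran from 4.09 for Polr1e to 20.9 for Polr1a, with a median of 9.98. Polymerase III subunits with Polr symbols ran from 3.97 for Polr3g to 26.2 for Polr3k, with a median of 12.8. Polr2f was the most abundant member at 364 CPM per kb, and fell to 247 with MAX restored. With MAX restored the class medians were 7.10 for polymerase I, 9.76 for polymerase III and 35.2 for polymerase II, in the same order. Those medians leave out the subunits under other symbols, Znrd1 (29.7 CPM per kb in the controls), Cd3eap (18.1), Twistnb (6.76) and Crcp (25.3). The order of polymerases I and III thus holds for the Polr symbols alone.

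Neighbouring genes and gene structure were compared with the calls as well. The median log2 fold change of the 50 tested genes nearest to a member lay between -0.13 and 0.19 for the 19 members that fell and between -0.07 and 0.08 for the 6 that rose. Median exon length was 2514 bases for members that fell, 3039 for those that rose and 1796 for those not called. With a trend of expression with gene length removed in each library, 3 polymerase I, 7 polymerase III and 5 shared subunits were again lower. In that setting 2 polymerase II subunits, Polr2c (log2 0.27) and Polr2j (0.25), were higher.

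Other genes of the transcription apparatus were taken from lists of known roles. Most were called about as often as genes in general (63.5% of all tested genes): 61.3% of polymerase II general factors, 62.5% of pausing and elongation genes, 59.4% of Mediator genes and 60.0% of the mitochondrial list. These counts are therefore no result about those lists, and the assembly list (53.3%) and the small nuclear RNA promoter list (42.9%) lay below that share. Of 31 general factors of polymerase II 13 fell and 6 rose, among them Taf5 (log2 -0.75, SE 0.08) and Mnat1 (-0.58, SE 0.07), which fell, and Tbp (0.25, SE 0.08), the TATA-binding protein used by all 3 enzymes, which rose. Of 32 tested Mediator genes 11 fell and 8 rose, Med8 falling (log2 -0.56) and Med12 (0.53) and Med22 (0.38) rising. Pausing and elongation genes were lower in 7 and higher in 8 of 24, with the elongation factor genes Ell3 (log2 1.04, SE 0.11) and Ell (0.66, SE 0.06) higher and Larp7, of the 7SK complex, lower (-0.47, SE 0.06). Of 15 genes that assemble polymerases and carry them into the nucleus 7 fell, among them Ruvbl2 (log2 -0.52), Uri1 (-0.52) and Gpn3 (-0.50), and 1, Rpap1, rose. Of 7 genes of the small nuclear RNA promoter factor SNAPc and its partners 3 fell, Pou2f1 the most clearly (log2 -0.36, SE 0.05). In the mitochondrial transcription list 3 of 5 fell, including the organelle's own polymerase gene Polrmt (log2 -0.38, SE 0.07).

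**Figure D5:**
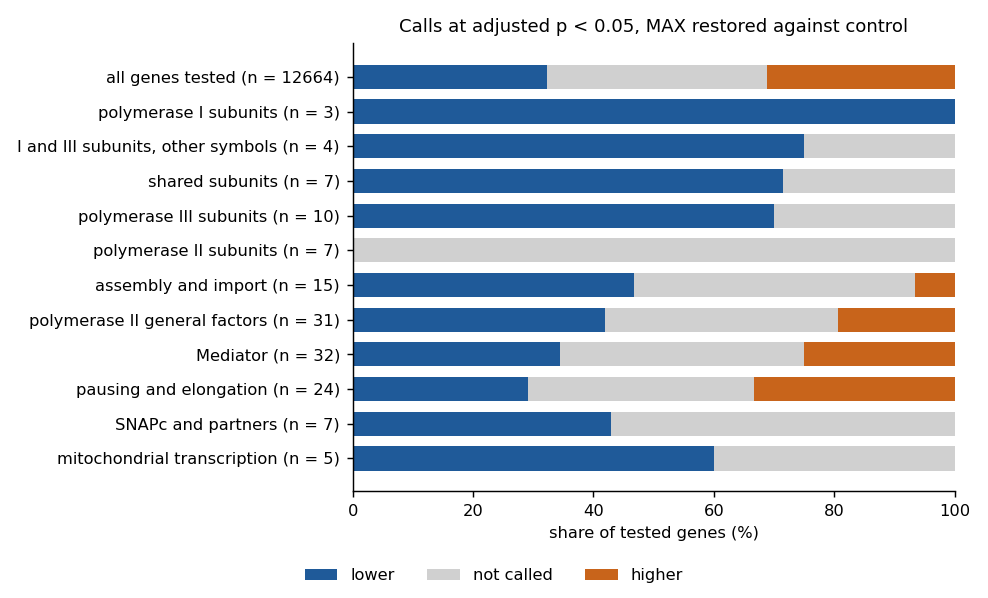
Share of tested genes (x axis, %) called lower, not called or called higher at adjusted p under 0.05, for all 12664 genes tested, the polymerase subunit classes and the related lists, with the number tested in brackets. Among subunits with Polr symbols, lower calls make up 100% of the 3 of polymerase I and 70% of the 10 of polymerase III. They make up 75% of the 4 I and III subunits under other symbols and 32.3% of all genes. No subunit found in polymerase II alone is called.

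Of the RNAs that polymerases I and III make, few were measured well enough to test. Rn45s, the ribosomal RNA precursor made by polymerase I, was at 10013, 1869 and 1083 CPM in controls 1, 2 and 3 and at 1608, 1209 and 1256 CPM in MAX restored 1, 2 and 3. Control 1 alone lay far above the rest and the groups overlapped; edgeR gave log2 -1.67 (SE 0.46, adjusted p = 0.00379), and without control 1 the value was -0.12 with an adjusted p of 0.0630. DESeq2 (adjusted p = 0.147) and limma voom (0.0632) did not call it either. A pair of short polymerase III RNAs was highest in the same library: Rmrp had 48, 12 and 5 counts in the controls and 7, 5 and 5 with MAX restored, and Rpph1 had 63, 5 and 1 counts and 5, 3 and 3 counts. Both were below the count needed for testing. The values above are for transcripts that encode the polymerases, and the amount of ribosomal or transfer RNA made was not measured.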

How the data were processed

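The 6 libraries, 3 control and 3 MAX restored, were grouped by their labels. Each library's deposited file holds unnormalized read counts for each gene symbol. The authors made them with featureCounts 1.6.0, per the file headers, ignoring strand, over exons of UCSC mm9 genes. No option for multi-mapping or multi-overlapping reads was set, and at that default a read over exons of several genes is counted for none of them. Antisense reads over exons of a gene alone cannot be told apart from its own. The submitters' processing notes name STAR 2.5.2a and bcl2fastq 1.8.4. Per the labels' protocols, 500 ng of total RNA went into each library.

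The filter filterByExpr (minimum count 10) kept 12664 of 24391 genes. After TMM scaling, edgeR 4.0.16 in R 4.3.3 ran its two-sided quasi-likelihood test with group as the only term. P-values were adjusted by Benjamini-Hochberg over every gene kept, and the threshold was 0.05. CPM are counts scaled to the TMM library size. No added RNA standard was used, and every change is thus relative to other transcripts. A standard error is the size of the log2 fold change divided by the root of its F statistic. Precision is limited by total counts of 10046899 to 11925909 per library and by 3 libraries per group, and a count of 0 allows up to 3 counts, counting error only. A chi-square test of each replicate pair, on genes holding 20 counts or more, found no pair within sampling noise. Same-numbered libraries did not deviate together, so the test has no block.

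The members and lists were chosen with earlier results of these data known. Every member could be named; values per library were given for the catalytic subunits, the exchangeable pairs, Ubtf, Rrn3, Maf1 and the 2 members of each class with the smallest p, and from each related list up to 3 genes with the smallest p. Beyond that rule, Polr1e, Polr2h, Polr3k, Tbp, Znrd1 and Rpap1 were chosen after their values were seen, as were the motifs. The result of 1 member is not reported here, though class counts and medians include it. Promoters come from RefSeq, GRCm38.p6, and gene positions from the files, mm9; the builds were not mixed. The scripts were tested on simulated data. Alternatives were DESeq2 1.42.0, voom from limma 3.58.1, changed scaling, filter or threshold, the replicate number as a block, a gene length trend and each library left out.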

Additional observations from a re-analysis of the deposited data

How the results depend on the processing

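Of the 19 members that fell, 16 kept their call and direction under every other fit at the 0.05 threshold, the exceptions being Polr1e, Polr3k and Maf1. Of the 6 that rose, 4 did, the exceptions being Gtf3c4 and Brf2. No alternative called a subunit found in polymerase II alone lower, or a subunit of polymerase I or III higher. The cause of the changes below was not tested. With upper quartile scaling 2 polymerase II subunits were called higher, as with the gene length trend removed. Requiring an absolute log2 fold change of at least 0.3 left 12 members lower and 2 higher, by construction, with polymerase I factors at 0 lower and 1 higher and polymerase III factors at 1 lower and 1 higher. At an adjusted p under 0.01, and with DESeq2, 2 polymerase III factors were higher. With 1 library left out, called higher were 0 to 2 polymerase II subunits and 2 to 5 polymerase III factors, and called lower were 1 to 2 polymerase I factors. Polymerase III subunits called lower ranged from 6 to 8 and shared ones from 5 to 6. The higher members ranged from 4 to 9 in these settings (9 also with upper quartile scaling) and the lower ones from 17 to 19.

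A change of sign occurred in 10 of 44 members, none of them past the threshold as reported or in the setting that changed the sign. With the gene length trend removed the log2 value was -0.0019 for Polr2a, 0.096 for Polr2d, 0.12 for Polr2g, 0.048 for Polr2i, 0.0051 for Polr2m, 0.015 for Polr2k and -0.036 for Gtf3c1. Polr2m was 0.00060 with upper quartile scaling. With 1 library left out the range was -0.044 to 0.14 for Polr2a, -0.15 to 0.016 for Polr2d, -0.10 to 0.021 for Polr2g, -0.043 to 0.10 for Polr2j, -0.12 to 0.0090 for Polr3a and -0.082 to 0.0049 for Bdp1.

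The replicate numbers pair no samples by the labels, and same-numbered libraries deviated from their group means with correlations of 0.0035, 0.035 and -0.024. With the replicate block 19 members were lower and 5 higher; Gtf3c4 (0.11) lost its call, at an adjusted p of 0.0519. Depth limits Polr2k most, with 33 to 47 counts per library and a 95% interval of log2 -0.60 to 0.21.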

Other observations

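Some members start close to a gene on the opposite strand, and the partners did not always move alike. Of 36 members with a RefSeq promoter 13 had such a start within 1000 bases upstream. The share over all genes was not computed, so this count is no result about the members. Gtf3c4 (log2 0.11) starts 46 bases from Ddx31, a nucleolar helicase gene, which fell (-0.53, SE 0.10, edgeR adjusted p = 8.59e-05). Polr3f, not past the threshold, starts 331 bases from Dzank1, which rose (log2 0.65, SE 0.08). Polr1a fell, whereas Ptcd3, 291 bases away, was at log2 0.05 (SE 0.07) and did not pass. Polr1c fell (log2 -0.29), and so did Yipf3, 35 bases away (-0.18, SE 0.06). Polr2l, not past the threshold at -0.27, starts 83 bases from Tspan4, which fell (-0.94, SE 0.10). These pairs were chosen after their values were seen, and the difference within a pair was not tested.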
